A study of Mus musculus with 9 samples.

Results

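The 33 genes described here act in germ cells and in meiosis, and they were taken by symbol from the 24411 genes of the deposited tables. All 33 had a row. RNA was measured in 9 libraries of EB5, a male mouse embryonic stem (ES) cell line that derives from E14tg2a on a 129Ola background and carries the Oct3/4IRES-BSD-pA/+ allele in every group. The groups were 3 Parental libraries, 3 libraries of Zfp352-KO cells, in which the zinc finger gene Zfp352 was deleted with CRISPR-Cas9, and 3 libraries of Zfp352/Zfp353-DKO cells, in which Zfp353 was deleted as well. All cells were grown in serum with leukemia inhibitory factor on gelatin. Separate cultures or clones are not named in the labels, and a p-value here may therefore reflect no more than technical scatter among the 3 libraries of each genotype. The genotypes are called Parental, KO and DKO below.

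Germ cells pass through meiosis with proteins that ordinary dividing cells do not use. Cohesin and axis proteins organise the chromosomes, the synaptonemal complex joins homologous pairs, and a recombinase repairs the breaks that recombination makes. In the cytoplasmic granules called nuage, PIWI proteins and their helpers make piRNAs, small RNAs that silence retrotransposons. Most of these genes are silenced in body tissues, often by DNA methylation of CpG-rich promoters, and some are transcribed at low to moderate levels in pluripotent cells without meiosis taking place.

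Of the 33 genes, 23 (69.7%) had a mean TPM of at least 1 over the 9 libraries, the level taken here as expressed. TPM, the share of a transcript among all transcripts of a library, is a level corrected for transcript length and depth. Of all 24411 genes, 52% reached that level. In DKO cells 6 of the 30 testable germline genes fell against Parental cells and 0 rose. In KO cells 2 fell and 0 rose. The falls were 1.17-fold to 1.79-fold, and 5 of the 6 genes lower in DKO cells were placed in the piRNA and nuage group: Stk31, Tex19.1, Fkbp6, Piwil2 and Mov10l1. The role groups were drawn up with earlier results of these data known, so their share of the falls is not a test of the group. The calls are from edgeR's quasi-likelihood test over all 14300 tested genes at a Benjamini-Hochberg adjusted p under 0.05. Across all tested genes 7.06% were called in the KO comparison (3.64% lower, 3.43% higher) and 8.47% in the DKO comparison (4.82% lower, 3.65% higher). The KO count, 6.67% of the 30 germline genes, lies near that background, and the DKO count is 20%. The 6 falls in DKO cells became 3 with DESeq2, with limma-trend and without KO 1 and DKO 3, and 3 to 6 when 1 library was left out. DESeq2 and limma-trend called 0 germline genes higher, and 6 other alternatives called Hormad1 higher in KO cells (edgeR adjusted p 0.024 to 0.049): no filter on low counts, only the 6 libraries compared, the length trend removed, and the omission of Parental 2, DKO 1 or DKO 3. At an unadjusted p under 0.05, edgeR had 4 of the 30 higher and 6 lower in KO cells (11.9% of all tested genes each way), and 2 higher (12.1%) and 9 lower (12.4%) in DKO cells. Both comparisons use the same 3 Parental libraries.

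The libraries held 16599004 to 22044820 expected counts each. Zfp352 was read at 1.78, 2.05 and 1.76 TPM in the Parental libraries, at 0.16, 0.31 and 0.41 in the KO libraries and at 0.04, 0.04 and 0.14 in the DKO libraries, so every edited library lay below every Parental one. Zfp353 was not analysed here. All 8 ES cell markers were expressed, with a summed TPM of 7260 to 7430 in every library. Of the 8, 0 were called in KO cells and 1 in DKO cells, where Sox2 was higher (log2 fold change 0.19 ± 0.05, edgeR adjusted p = 0.011). The 9 spermatid markers summed to 0.15 to 1.21 TPM, none could be tested, and Akap4 was at 0 in all libraries. Summed fibroblast-type markers (13 genes) moved with genotype: 98.7 to 109 TPM in Parental, 60.6 to 71.2 in KO and 45.7 to 53.7 in DKO libraries, with 6 of 10 tested members lower in each edited genotype. Summed gonadal somatic cell markers (9 genes) were at 309 to 326, 265 to 272 and 249 to 280 TPM, with Rhox5 lower in both edited genotypes and Star higher in DKO cells. That sum is mostly Rhox5, with a mean of 272 TPM over all libraries, and only 2 of the 9 genes reached a mean of 1 TPM in each genotype. Summed 2-cell-like cell markers (13 genes) were at 348 to 354, 408 to 431 and 341 to 365 TPM, with 4 of 13 higher and 3 lower in KO cells and 1 higher and 4 lower in DKO cells, Zfp352 itself among those lower. Over all tested genes 3.64% were called lower and 3.43% higher in KO cells, and 4.82% lower and 3.65% higher in DKO cells. The part of these 3 lists in the falls below was not tested. In bulk RNA, fewer cells that express a gene and less RNA per cell cannot be told apart.

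Tex19.1, which restrains retrotransposons in germ cells and pluripotent cells, was the most abundant of the 33, with a mean of 136 TPM, rank 1108 of all genes. Syce1 followed at 28.8 and Stag3 at 28 TPM. The median of the 23 expressed germline genes was 12.7 TPM, against 17.1 TPM for all expressed genes. The 10 genes under the level were Sycp2, Tdrd1, Brdt, Piwil1, Dpep3, Piwil4, Asz1, Tdrd9, Tdrd6 and Spo11. Sycp2, at 0.977 TPM, lay just outside it and reached 1 TPM in 5 of the 9 libraries, while Slc25a31, at 1.81 TPM, lay just inside. The lowest was Spo11, the enzyme that makes meiotic breaks, with 7 reads over all 9 libraries. The count of expressed genes was 24 in Parental, 25 in KO and 23 in DKO cells. Brdt reached the level only in KO cells, at a mean of 1.06 TPM, where the transcript length that enters its TPM was shortest.

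**Figure D1:**
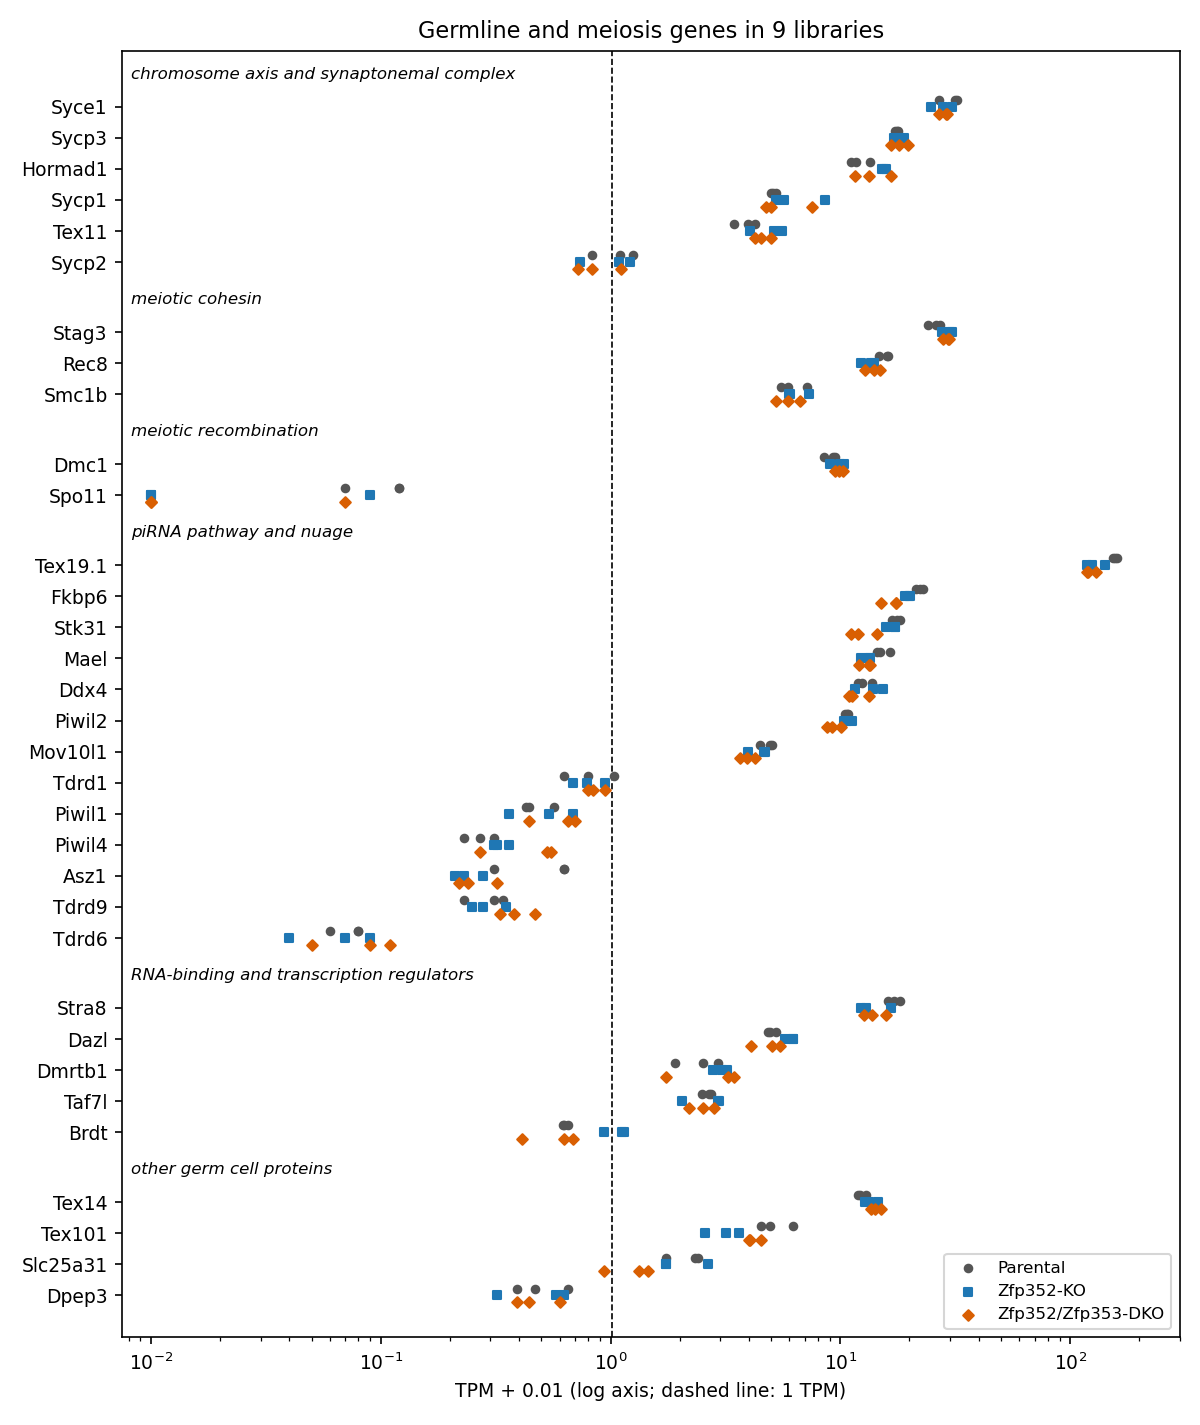
TPM + 0.01 (log axis) of each of the 33 genes in each of the 9 libraries, grouped by role, with a dashed line at 1 TPM. Tex19.1 stands highest, near 136 TPM, Spo11 and Tdrd6 lie lowest, and for most genes the points of the 3 genotypes overlap.

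Promoters of germline genes are known targets of a Polycomb complex that contains Mga and Max, which bind the E-box CACGTG, and E2f6, which binds TCCCGC. These letters were therefore searched in the RefSeq promoter windows (build GRCm38.p6, the assembly also called mm10), which hold 250 bases before and 50 after an annotated start. CACGTG reads the same on both strands, TCCCGC was searched on both, and the motifs can share at most 1 base. Of the 33 genes 29 had a window, and the 29 had 36 windows. CACGTG was present for 15 of the 29 genes (51.7%), against 8.09% of 27025 RefSeq genes. TCCCGC was present for 12 of the 29 (41.4%), against 22% of all genes. The windows were also richer in CpG, with a median of 20 CpG each, against 7 over all windows. Both motifs hold a CpG, and the comparison with all genes was not matched for CpG content. The part of CpG content in the motif shares was therefore not tested.

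The stretches before an annotated start are shown for 3 genes that fell in DKO cells in every alternative run. Sycp3 is shown as well, a synaptonemal complex gene that holds both motifs and was not called. Capitals mark CACGTG and TCCCGC, the latter also as its reverse complement. Each stretch ends before any annotated exon or RefSeq gene start inside its window. That of Stk31 therefore has 217 bases and that of Sycp3 has 232. That of Fkbp6 lies within the Fkbp6 gene (chr5:135291704-135351809), downstream of the start of the gene, and is not sequence upstream of it. That of Stk31 is at chr6:49395289-49395505 (+ strand), that of Fkbp6 at chr5:135350045-135350294 (- strand), that of Tex19.1 at chr11:121145893-121146142 (+ strand) and that of Sycp3 at chr10:88459337-88459568 (+ strand).
Stk31: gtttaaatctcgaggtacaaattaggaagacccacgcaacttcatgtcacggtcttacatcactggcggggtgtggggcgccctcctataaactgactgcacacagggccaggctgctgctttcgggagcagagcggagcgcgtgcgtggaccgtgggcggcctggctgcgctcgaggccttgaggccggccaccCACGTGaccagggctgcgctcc
Fkbp6: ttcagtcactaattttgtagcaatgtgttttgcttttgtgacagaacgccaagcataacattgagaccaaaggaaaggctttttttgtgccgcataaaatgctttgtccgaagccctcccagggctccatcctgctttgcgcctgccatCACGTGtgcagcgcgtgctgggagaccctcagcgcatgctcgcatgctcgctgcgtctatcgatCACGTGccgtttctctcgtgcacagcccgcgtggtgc
Tex19.1: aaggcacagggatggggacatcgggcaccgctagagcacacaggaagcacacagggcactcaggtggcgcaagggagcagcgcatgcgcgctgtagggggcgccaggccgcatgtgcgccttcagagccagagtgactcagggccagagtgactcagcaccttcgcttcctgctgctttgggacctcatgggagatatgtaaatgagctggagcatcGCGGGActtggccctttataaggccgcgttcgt
Sycp3: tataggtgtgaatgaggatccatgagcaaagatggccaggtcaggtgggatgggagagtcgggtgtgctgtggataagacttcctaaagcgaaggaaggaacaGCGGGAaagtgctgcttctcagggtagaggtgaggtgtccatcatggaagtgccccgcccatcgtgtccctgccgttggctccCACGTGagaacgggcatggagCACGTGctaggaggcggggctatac
Stk31 and Fkbp6 have 2 annotated starts each. The Stk31 stretch holds 1 E-box, whose first base lies 55 bases before 1 start and 120 bases before the other. The Fkbp6 stretch holds 2 E-boxes, at 101 and 37 bases from 1 start and at 232 and 168 bases from the other. Tex19.1 has no E-box here and 1 TCCCGC match, at 33 bases. Sycp3 holds E-boxes at 64 and 43 bases and a TCCCGC match at 147 bases.

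For the 15 genes with an E-box the median log2 fold change in DKO against Parental cells was -0.11, with 4 called lower, and that of the 13 tested genes without one was also -0.11, with 1 lower. In KO cells the medians were -0.03 and -0.04, with 0 and 2 lower. Over all tested genes 4.82% were called lower in DKO and 3.64% in KO cells. TCCCGC was found in windows of 12 of the 21 expressed genes with a window and of 0 of the 8 others. CACGTG was found in those of 11 of the 21 and of 4 of the 8. TCCCGC holds a CpG, and the median was 21 CpG per window for the expressed genes and 12 for the others. The part of CpG content in this split was not tested. A match is only a string of letters and says nothing about binding in these cells.

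**Figure D2:**
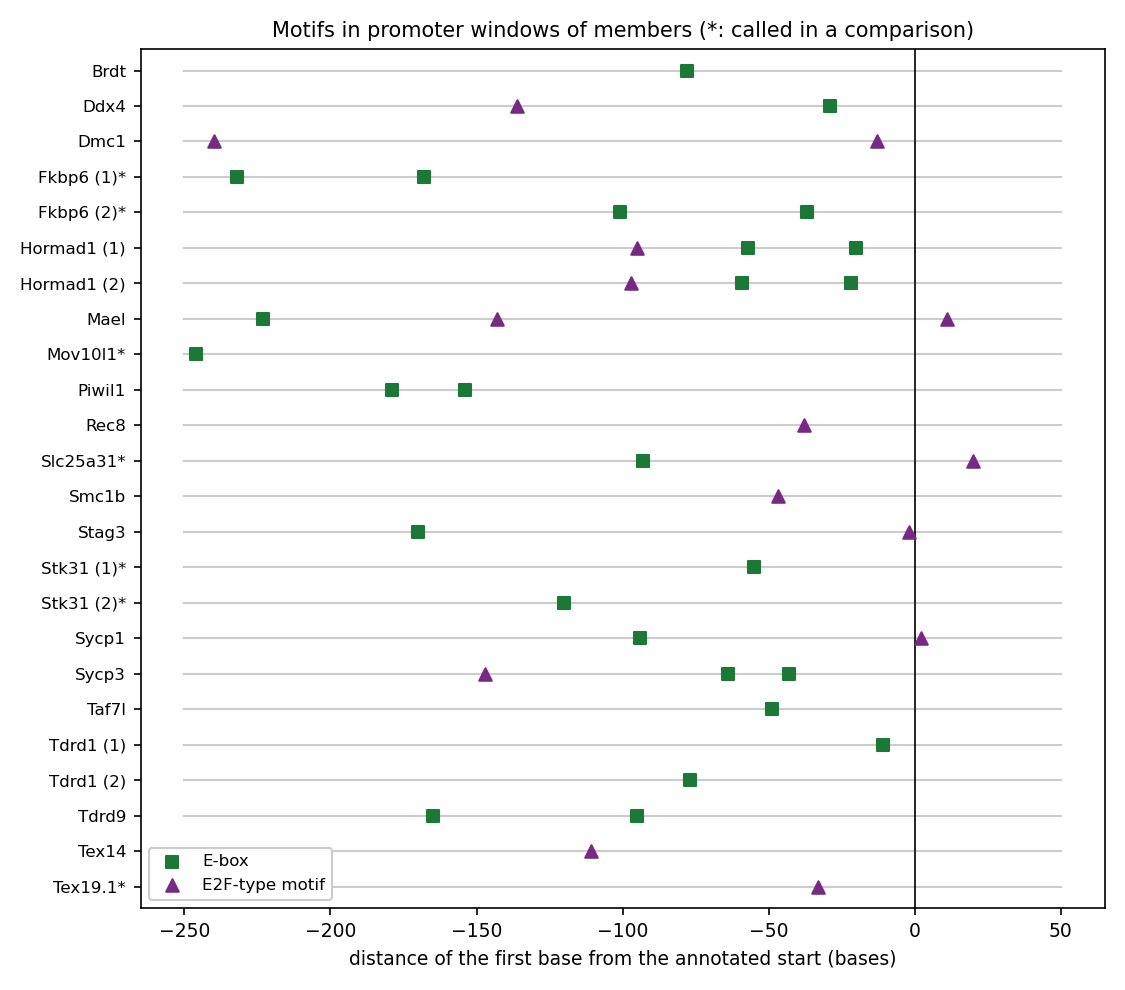
Position of each E-box (square) and TCCCGC match (triangle) relative to the annotated start, in bases, for the promoter windows that hold at least 1. Each line is 1 window and a star marks a gene called in a comparison. Most matches lie before the start, and called and uncalled genes both hold them.

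The piRNA and nuage group had 13 genes, of which 7 were expressed and 11 could be tested. Its summed level was 243 TPM in Parental, 209 in KO and 192 in DKO cells, of which Tex19.1 alone gave 157, 128 and 122 TPM. In DKO against Parental cells 5 of the 11 fell, against 4.82% of all tested genes. The group median log2 fold change was -0.23, while the median over all tested genes was 0. With DESeq2 or limma-trend 3 of these 5 were called, Stk31, Tex19.1 and Fkbp6, and Piwil2 and Mov10l1 were not. In KO cells 1 fell (3.64% of all tested genes) and the group median was -0.08. The group was drawn up with earlier results of these data known, so its shares and medians are not a test of it.

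Stk31 (chr6:49395506-49469506), a protein with a tudor domain and a kinase-like domain found beside PIWI proteins, gave 17.6, 18.1 and 16.7 TPM in the Parental libraries, 17.2, 17.3 and 15.8 in the KO libraries, and 11.2, 11.9 and 14.5 in the DKO libraries. All 3 DKO values lie below all Parental and all KO values, and DKO replicate 3 is the highest of the 3. Stk31 fell 1.45-fold in DKO cells (log2 fold change -0.53 ± 0.08 SE, edgeR adjusted p = 0.00022). In KO cells its log2 fold change was -0.11 ± 0.08, with a 95% interval from -0.264 to 0.051 (edgeR adjusted p = 0.42).

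Tex19.1 (chr11:121146143-121148314) gave 157, 161 and 154 TPM in the Parental libraries, 119, 141 and 125 in the KO libraries, and 118, 120 and 129 in the DKO libraries. Every edited library lay below every Parental one, and the KO and DKO values overlap. Tex19.1 fell 1.26-fold in KO cells (log2 fold change -0.34 ± 0.06, edgeR adjusted p = 0.0023) and 1.32-fold in DKO cells (-0.41 ± 0.06, edgeR adjusted p = 0.00023). Group means ± SD (n = 3) were 157 ± 3.18, 128 ± 11.7 and 122 ± 5.91 TPM.

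Fkbp6 (chr5:135291704-135351809), a co-chaperone needed in piRNA production, gave 22.8, 22.3 and 21.3 TPM in the Parental libraries, 20.0, 20.1 and 19.12 in the KO libraries, and 17.4, 15.1 and 17.4 in the DKO libraries. The 3 genotypes did not overlap, with KO values in the middle. Fkbp6 fell 1.37-fold in DKO cells (log2 fold change -0.46 ± 0.09, edgeR adjusted p = 0.0023). Its difference in KO cells, -0.20 ± 0.08, did not pass (edgeR adjusted p = 0.14).

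Piwil2 (chr14:70372477-70436898), a PIWI protein itself, gave 10.8, 10.4 and 10.7 TPM in the Parental libraries, 10.4, 11.2 and 10.7 in the KO libraries, and 8.73, 10.0 and 9.16 in the DKO libraries. The DKO values lie below the other 6, by little. Piwil2 fell 1.17-fold in DKO cells (log2 fold change -0.23 ± 0.07, edgeR adjusted p = 0.043). The call ended when any 1 of 7 libraries was left out, which were Parental 1, 2 and 3, KO 2 and 3 and DKO 1 and 3 (edgeR adjusted p 0.055 to 0.16). It also ended with DESeq2, limma-trend, the replicate block and without both KO 1 and DKO 3 (adjusted p 0.057 to 0.2).

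Mov10l1 (chr15:88982891-89055152), the RNA helicase that starts piRNA processing, gave 4.92, 5.05 and 4.48 TPM in the Parental libraries, 4.71, 4.64 and 3.96 in the KO libraries, and 3.65, 3.90 and 4.25 in the DKO libraries. DKO values lie below Parental values and overlap those of KO cells. Mov10l1 fell 1.26-fold in DKO cells (log2 fold change -0.34 ± 0.10, edgeR adjusted p = 0.044). The call ended without Parental 1 or 2, without KO 2 or without any 1 DKO library (edgeR adjusted p 0.061 to 0.18). The same other settings that ended the Piwil2 call ended this one (adjusted p 0.063 to 0.17).

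Mael, a nuage protein of the same pathway, gave 14.4, 14.9 and 16.4 TPM in the Parental libraries, 13.4, 13.5 and 12.3 in the KO libraries, and 13.4, 12.0 and 13.5 in the DKO libraries. All 6 edited libraries lay below the Parental ones, and neither difference passed (log2 fold change -0.27 ± 0.09 in both, edgeR adjusted p = 0.072 for KO and 0.065 for DKO cells). Ddx4, the helicase known as vasa, gave 11.9, 12.4 and 13.7 TPM in the Parental libraries, 13.9, 15.3 and 11.5 in the KO libraries, and 10.9, 11.2 and 13.3 in the DKO libraries. The 3 genotypes overlapped for Ddx4 and no comparison passed.

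The other 6 genes of the group, Tdrd1, Tdrd6, Tdrd9, Piwil1, Piwil4 and Asz1, had means of 0.0644 to 0.822 TPM. None was called, and Tdrd6 and Asz1 had too few reads to be tested. Asz1, a mitochondrial partner of the piRNA machinery, had 6, 12 and 11 reads in the Parental libraries, 4 in each KO library and 4, 4 and 5 in the DKO libraries. In a fit with no filter on low counts its log2 fold change was -1.17 ± 0.57 in KO cells (edgeR adjusted p = 0.24) and -1.07 ± 0.56 in DKO cells (edgeR adjusted p = 0.29).

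**Figure D3:**
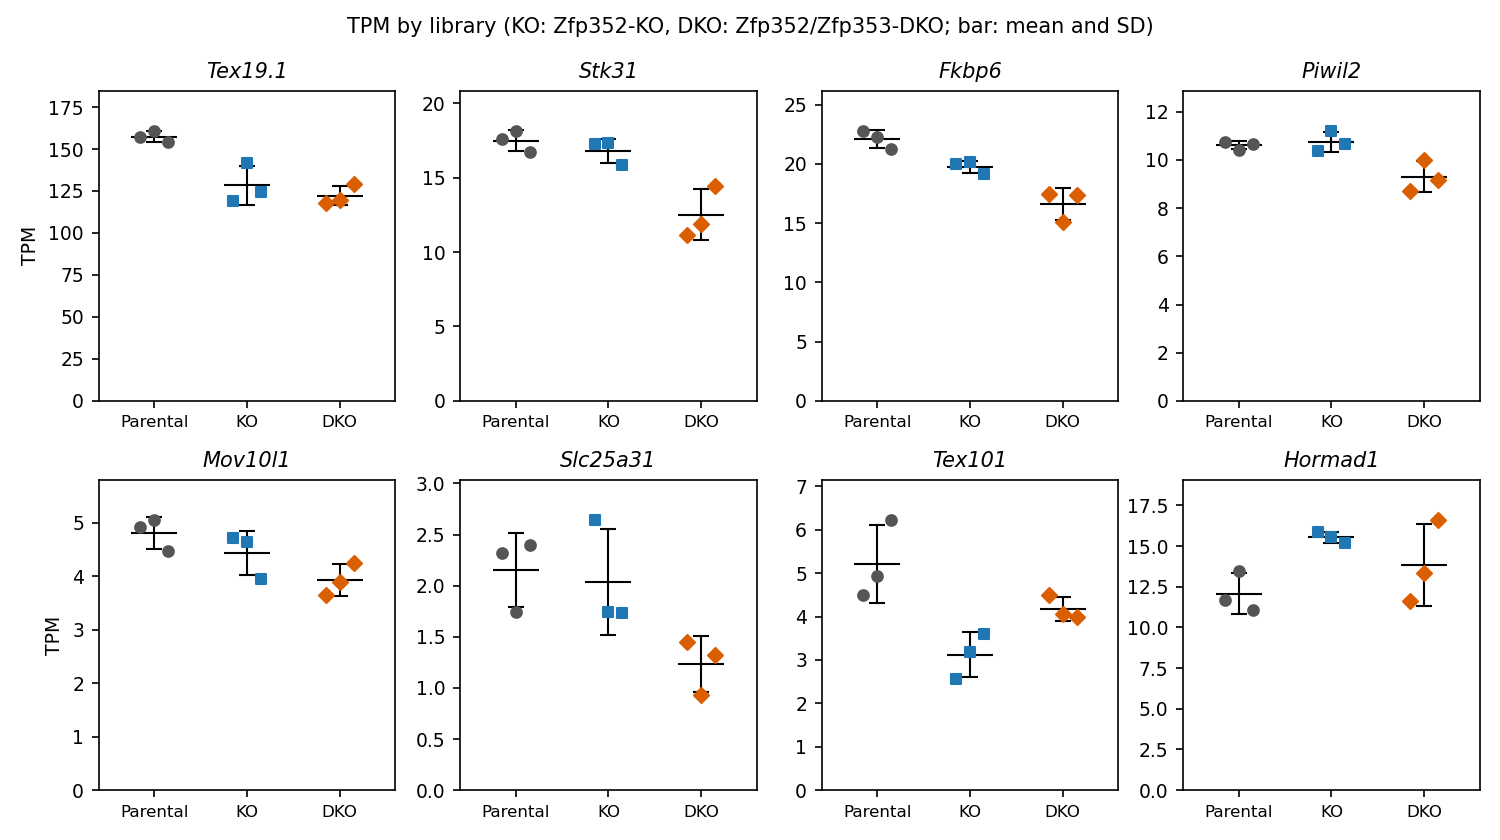
TPM in each library for the 7 genes called in any comparison and for Hormad1, with the mean and SD of the 3 libraries as bars and each axis starting at 0. Stk31, Fkbp6, Piwil2 and Slc25a31 lie lowest in the DKO libraries, Tex19.1 is lower in both edited genotypes, and Tex101 is lowest in the KO libraries.

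The chromosome axis and synaptonemal complex group had 6 genes, 5 of them expressed. All 6 were tested with edgeR and 0 passed in any comparison, although Hormad1 and Tex11 had an unadjusted p under 0.05 in KO cells, with a median log2 fold change of 0.13 in KO and 0.06 in DKO cells. Sycp3, a core protein of the axis, gave 17.6, 17.7 and 17.3 TPM in the Parental libraries, 18.9, 17.1 and 18.2 in the KO libraries, and 16.6, 19.8 and 18.04 in the DKO libraries. Its log2 fold change was -0.01 in KO cells, with a 95% interval from -0.206 to 0.193, and 0.01 in DKO cells, from -0.19 to 0.209. Sycp3 shares 660 exonic bases with Chpt1 on the opposite strand (7.62 TPM), and whether counting used the strand is not given in the sources used here.

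Hormad1, which marks unpaired chromosome axes, gave 11.7, 13.5 and 11.1 TPM in the Parental libraries, 15.9, 15.6 and 15.2 in the KO libraries, and 11.6, 13.3 and 16.6 in the DKO libraries. Every KO value lies above every Parental value, and DKO values span both. Its log2 fold change in KO cells was 0.34 ± 0.11 and missed the threshold (edgeR adjusted p = 0.065).

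Sycp1, the filament that links paired axes, gave 4.98, 5.26 and 5.08 TPM in the Parental libraries, 8.53, 5.67 and 5.24 in the KO libraries, and 4.76, 4.98 and 7.51 in the DKO libraries. Its high values are those of KO 1 and DKO 3, which are also the 2 libraries whose values rose most with transcript length (Spearman rho over 14300 genes 0.391 and 0.362, against -0.402 to 0.189 in the other 7). The part of length in the level of Sycp1 was not tested.

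Syce1, a central element protein, gave 31.7, 32.1 and 26.8 TPM in the Parental libraries, 28.0, 30.7 and 24.8 in the KO libraries, and 28.8, 29.0 and 26.8 in the DKO libraries. Tex11, an X-linked regulator of crossovers, gave 3.94, 4.23 and 3.45 TPM in the Parental libraries, 5.14, 5.54 and 4.02 in the KO libraries, and 4.50, 4.25 and 4.99 in the DKO libraries. The groups overlap for Syce1, and for Tex11 the DKO values lie just above the Parental ones with an edgeR adjusted p of 0.35. Sycp2 lay between 0.71 and 1.24 TPM in all 9 libraries.

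The 3 meiotic cohesin subunits were all expressed, and 0 passed edgeR's test, although Stag3 and Rec8 had an unadjusted p under 0.05 in both edited genotypes. Stag3 gave 25.97, 24.2 and 27.1 TPM in the Parental libraries, 30.7, 29.9 and 27.6 in the KO libraries, and 27.9, 29.3 and 29.9 in the DKO libraries. Rec8, the kleisin subunit of meiosis, gave 16.0, 16.1 and 14.7 TPM in the Parental libraries, 12.4, 14.0 and 13.6 in the KO libraries, and 14.8, 12.8 and 13.9 in the DKO libraries. Both lie on opposite sides of the Parental level: Stag3 had a log2 fold change of 0.14 ± 0.05 in KO and 0.13 ± 0.05 in DKO cells (edgeR adjusted p = 0.09 and 0.11), and Rec8 one of -0.27 ± 0.09 and -0.21 ± 0.09 (edgeR adjusted p = 0.072 and 0.14). Smc1b gave 7.17, 5.89 and 5.51 TPM in the Parental libraries, 7.29, 5.97 and 6.04 in the KO libraries, and 5.26, 5.91 and 6.65 in the DKO libraries, so its groups overlap.

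Dmc1, the meiosis-specific strand exchange protein, gave 9.51, 9.26 and 8.50 TPM in the Parental libraries, 9.91, 10.3 and 8.99 in the KO libraries, and 9.51, 9.89 and 10.3 in the DKO libraries. Its partner in the recombination group, Spo11, had 5 reads in all Parental libraries together and 1 in those of each edited genotype. The Dmc1 groups overlap, with a log2 fold change of 0.07 in KO (95% interval -0.124 to 0.268) and 0.09 in DKO cells (-0.105 to 0.286).

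Of the 5 RNA-binding and transcription regulators, 4 were expressed and 0 passed edgeR's test, although Stra8 in both edited genotypes and Dazl in KO cells and between the edited genotypes had an unadjusted p under 0.05. Stra8, which retinoic acid induces at entry into meiosis, gave 16.1, 17.1 and 18.2 TPM in the Parental libraries, 12.9, 12.3 and 16.6 in the KO libraries, and 15.7, 12.7 and 13.7 in the DKO libraries. Of the 6 edited libraries 5 lay below every Parental one, but the log2 fold changes of -0.34 ± 0.12 in KO and -0.32 ± 0.12 in DKO cells did not pass (edgeR adjusted p = 0.089 and 0.097). Dazl, an RNA-binding protein of germ cell development, gave 5.23, 4.84 and 4.91 TPM in the Parental libraries, 6.20, 5.74 and 6.21 in the KO libraries, and 4.09, 5.04 and 5.46 in the DKO libraries. KO values of Dazl lie above those of both other genotypes without a call (log2 fold change against Parental 0.23 ± 0.11, edgeR adjusted p = 0.21).

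Dmrtb1, a DM-domain factor, gave 2.94, 1.90 and 2.51 TPM in the Parental libraries, 2.79, 3.04 and 3.21 in the KO libraries, and 3.42, 3.24 and 1.74 in the DKO libraries. Taf7l, a germ cell form of a TFIID subunit, gave 2.67, 2.50 and 2.72 TPM in the Parental libraries, 2.95, 2.94 and 2.04 in the KO libraries, and 2.51, 2.19 and 2.82 in the DKO libraries. The groups overlap for both. Brdt, a bromodomain protein of the testis, had 0.61 to 0.64 TPM in the Parental libraries and 0.93 to 1.13 in the KO libraries, but its values in CPM, which take no account of length, overlapped (1.02 to 1.17 against 1 to 1.39). The transcript length that enters its TPM was 2912 to 3612 bases in the Parental and 2028 to 2435 in the KO libraries.

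The last 4 genes are other germ cell proteins, of which 3 were expressed. Slc25a31 (chr3:40708871-40726094), the ADP/ATP carrier of sperm mitochondria, gave 2.32, 1.74 and 2.40 TPM in the Parental libraries, 2.64, 1.74 and 1.73 in the KO libraries, and 1.45, 0.93 and 1.32 in the DKO libraries. All DKO values lie below the other 6. Slc25a31 fell 1.79-fold in DKO cells (log2 fold change -0.84 ± 0.23, edgeR adjusted p = 0.031), on 20 to 57 reads per library. The call ended without Parental 1 or 3 or without DKO 2 or 3 (edgeR adjusted p 0.072 to 0.14), and with DESeq2, limma-trend or both KO 1 and DKO 3 left out (adjusted p 0.056 to 0.066).

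Tex101 (chr7:24668012-24672050), a surface glycoprotein of germ cells, gave 4.49, 4.93 and 6.22 TPM in the Parental libraries, 2.57, 3.18 and 3.60 in the KO libraries, and 4.50, 4.05 and 4.00 in the DKO libraries. KO values lie below all others, and DKO values reach into the Parental range. Tex101 fell 1.7-fold in KO cells (log2 fold change -0.76 ± 0.20, edgeR adjusted p = 0.029) on 22 to 65 reads per library, and its DKO difference was -0.34 ± 0.19 (edgeR adjusted p = 0.28). The call ended without any 1 Parental library or without KO 1 or 2 (edgeR adjusted p 0.059 to 0.14), with the length trend removed (0.053) and without both KO 1 and DKO 3 (0.11). DESeq2 gave no adjusted p for Tex101 in KO cells, and so no call. Tex14, a protein of the bridges between germ cells, gave 11.9, 12.2 and 12.96 TPM in the Parental libraries, 14.6, 13.3 and 12.8 in the KO libraries, and 14.1, 13.6 and 15.01 in the DKO libraries. Its DKO values lie above the Parental ones (log2 fold change 0.17 ± 0.06, edgeR adjusted p = 0.093). Dpep3 stayed between 0.31 and 0.64 TPM.

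**Figure D4:**
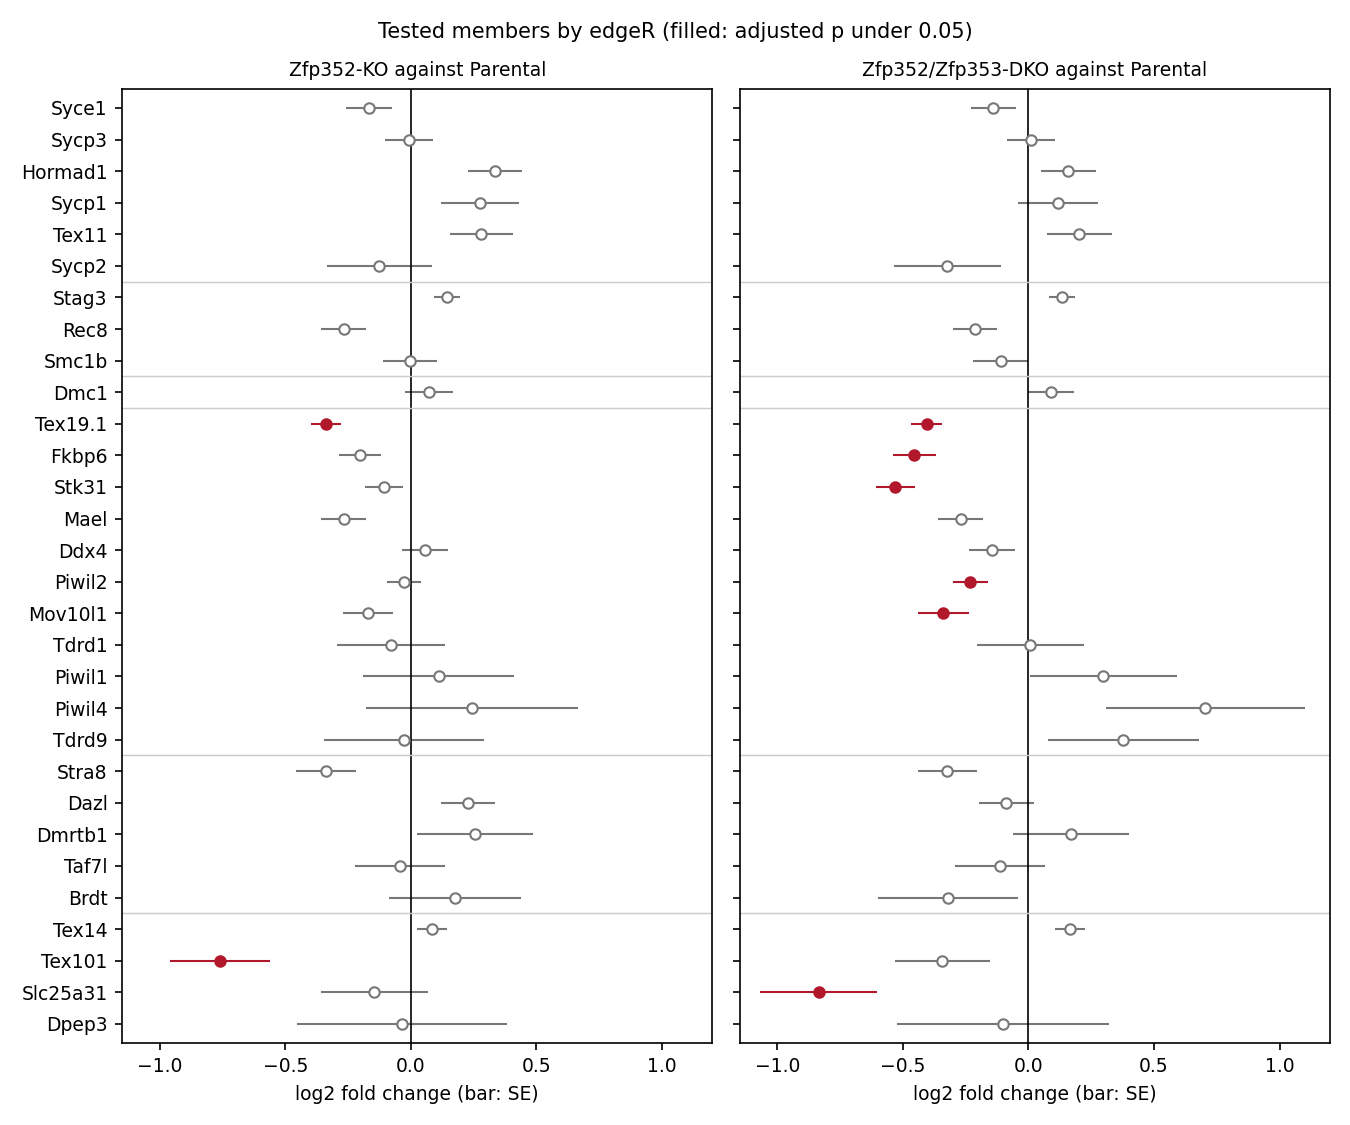
Log2 fold change with its SE for the 30 tested genes in KO (left) and DKO cells (right) against Parental cells, ordered by role. Filled points have an edgeR adjusted p under 0.05: Tex19.1 and Tex101 in KO cells, and Stk31, Tex19.1, Fkbp6, Slc25a31, Piwil2 and Mov10l1 in DKO cells, all below 0.

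Across the 30 tested genes, 18 lay below 0 in KO and 18 in DKO cells, with medians of -0.03 and -0.11 (all tested genes -0.01 and 0). TPM values of KO and Parental libraries did not overlap for 5 germline genes that were lower (9.98% of all tested genes) and 4 that were higher (16.2%). Among the 4 was Brdt, whose CPM values overlapped. For DKO against Parental libraries these counts were 8 lower (11%) and 3 higher (15.8%). Of the 9 calls over the 3 comparisons, those of Slc25a31 and Tex101 rest on the fewest reads, 20 to 65 per library.

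The direct comparison sets DKO cells against KO cells. The labels name no clones, so the added loss of Zfp353 cannot be told apart from any other difference between these cells. Zfp352 RNA was also lower in DKO cells, without a call (log2 fold change -1.99 ± 0.62, edgeR adjusted p = 0.45). Of all tested genes 0.105% were called (0.0909% lower), and of the 30 germline genes 1: Stk31 was 1.34-fold lower in DKO than in KO cells (log2 fold change -0.42 ± 0.08, edgeR adjusted p = 0.034), with all 3 DKO values below all 3 KO values. The call ended when any 1 of 7 libraries was left out, namely Parental 1 or 2, any KO library, or DKO 1 or 2 (edgeR adjusted p 0.053 to 0.25), and with limma-trend, only the 6 libraries compared or the replicate block (adjusted p 0.1 to 0.17). Fkbp6, Piwil2, Slc25a31, Dazl and Brdt also had all DKO values below all KO values, which makes 6 genes (5.52% of all tested genes), and Tex101 alone had all above (5.15%). Brdt separated in TPM only, as its CPM values overlapped (0.671 to 1.09 in DKO and 1 to 1.39 in KO libraries). At an unadjusted p under 0.05 there were 6 of 30 lower (3.38% of all tested genes) and 0 higher (3.04%), against 6.43% of all genes either way. None of the 6 genes beside Stk31 whose values did not overlap passed, with edgeR adjusted p from 0.53 to 0.83. The interval for Tex19.1, -0.193 to 0.059, held 0.

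**Figure D5:**
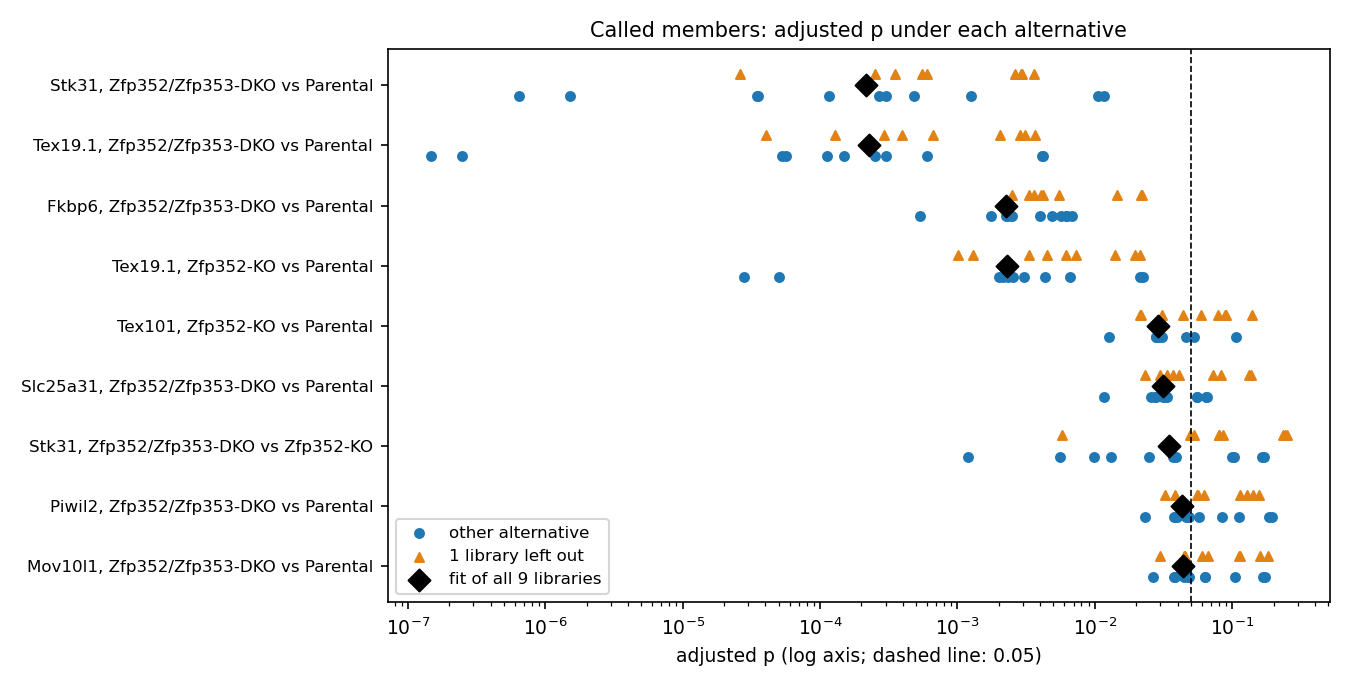
Adjusted p (log axis) of each of the 9 calls in the fit of all 9 libraries (diamond), with each library left out (triangles) and under the other alternatives (circles). The dashed line is 0.05. Stk31, Tex19.1 and Fkbp6 against Parental cells stay to its left throughout, and the other 5 calls cross it.

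Other genes of the same pathways were taken from lists that hold none of the 33. Over all tested genes 7.06% were called in KO and 8.47% in DKO cells. Of 23 tested further meiosis genes 1 was lower in each edited genotype: Syce2, a central element protein, fell from 144 TPM to 127 in KO and 129 in DKO cells (log2 fold change -0.23 ± 0.06 and -0.21 ± 0.06, edgeR adjusted p = 0.024 and 0.03). Of 14 tested further piRNA and nuage genes 0 were called in KO cells and 1 rose in DKO cells. That gene was Mybl1, the transcription factor that drives pachytene piRNA genes, at 5.55 TPM in Parental and 7.43 in DKO cells (log2 fold change 0.38 ± 0.08, edgeR adjusted p = 0.0067). None of the 14 was called lower in DKO cells, against 4.82% of all tested genes, and the difference from the group described above was not tested.

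Of 11 tested germ cell specification genes 1 rose and 1 fell in KO cells, and 3 rose and 2 fell in DKO cells. Kit rose and Ifitm3 fell in both, Dppa3 fell in DKO cells (-0.34 ± 0.06, edgeR adjusted p = 0.0012), and Dnd1 rose there (0.43 ± 0.10, edgeR adjusted p = 0.014). Of 24 known repressors of germline genes, 4 rose and 0 fell in KO cells, and 3 rose and 1 fell in DKO cells. Dnmt1, the methyltransferase that copies DNA methylation at replication, rose from 102 TPM to 145 in KO and 142 in DKO cells (log2 fold change 0.45 ± 0.04 and 0.44 ± 0.04, edgeR adjusted p = 4.4e-06 and 2e-06). Mga, which binds the E-box with Max, rose in KO cells (0.28 ± 0.08, edgeR adjusted p = 0.039), although its KO and Parental TPM values overlap. Of all tested genes 3.43% rose and 3.64% fell in KO cells, and 3.65% rose and 4.82% fell in DKO cells. The relation of the specification genes and repressors to the germline genes was not tested.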

How the data were processed

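RNA from 9 libraries was read as 75-base single-end reads from stranded mRNA libraries, per the labels' protocols. The submitters' processing notes name RSEM 1.3.3, STAR 2.7.8a, Trim Galore 0.6.6 and build mm10. The authors deposited expected counts, which divide shared reads between genes (9.27% were not whole), and TPM and FPKM values, per the file headers. FPKM served only in an alternative.

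The test was edgeR 4.0.16 (R 4.3.3) on rounded expected counts, with TMM factors from 0.992 to 1.01, filterByExpr, and a two-sided glmQLFTest after glmQLFit, all 9 libraries in 1 fit by genotype with 6 residual degrees of freedom. Of 33 genes 30 passed the filter; Spo11, Tdrd6 and Asz1 did not. Adjustment ran over 14300 genes. The fits were also run on counts simulated from edgeR's own estimates of spread, without a length trend, and that outcome is not reported here. Values in every library are given for expressed and for called genes. Coordinates are 1-based, from RefSeq on GRCm38.p6. Alternatives used DESeq2 1.42.0, limma 3.58.1 and other settings. The genes and lists were chosen with earlier results of these data known.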

Additional observations from a re-analysis of the deposited data

Results flagged for a closer look

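Stk31 was singled out because the effect of the double deletion differed from that of the single deletion in a test of the difference itself. The log2 fold change of DKO minus KO cells was -0.425 (edgeR adjusted p = 0.034). The call is the 1 among 30 germline genes in that comparison, and it was lost in 12 of 21 alternatives, with adjusted p up to 0.25. The fall kept its sign in all 21, between -0.515 and -0.361.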

How the results depend on the processing

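The calls of Tex19.1 in both edited genotypes and of Stk31 and Fkbp6 in DKO against Parental cells held in 21 of 21 alternatives. Tex101 lost its call in 8 of 20, Mov10l1 in 12, Piwil2 in 13 and Slc25a31 in 9 of 21, and no call changed sign. For Tex101 DESeq2 gave no adjusted p and so no call, which leaves 20 alternatives. Leaving out 1 library gave 1 to 3 called germline genes in KO against Parental cells, 3 to 6 in DKO against Parental cells and 0 to 1 in DKO against KO cells. In KO against Parental cells the count was 2, and 1 with DESeq2, at an adjusted p under 0.01 or without KO 1 and DKO 3, a setting chosen after seeing the data, and 4 with no filter on low counts. In DKO against Parental cells it was 6, and 3 with DESeq2, with limma-trend on log2(TPM + 1) or log2(TPM + 0.1), under 0.01 or without those 2 libraries. In DKO against KO cells it was 1, and 0 with limma-trend at either pseudocount, with only the 6 libraries compared, under 0.01 and with the replicate block. The cause was not tested. Between genotypes, correlations of same-numbered deviations ran from -0.0767 to 0.106, and those of different numbers from -0.0845 to 0.101. With 3 libraries per genotype these correlations cannot decide whether replicate numbers pair the libraries. With the replicate block 2 germline genes were called in KO and 4 in DKO against Parental cells.

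Alternatives were run gene by gene for the 23 expressed genes, which had 60 uncalled pairs of gene and comparison. Of their 1257 alternatives, 10 gave a call, 6 for Hormad1 (higher in KO) and 4 for Stra8 (lower), and 59 changed the sign of an uncalled difference. Over all genes, 1010 were called in KO against Parental cells and 1211 in DKO against Parental cells, but 359 and 578 with limma-trend on log2(TPM + 1), 257 and 467 under 0.01, and 558 and 807 without the 2 libraries. The block gave 569 in KO cells. In DKO against KO cells the 15 calls became 27 with DESeq2, 1 with limma-trend, 66 with no filter, 3 with 6 libraries or under 0.01, and 45 with the length trend removed. Leaving out 1 library gave 210 to 1552, 449 to 1337 and 3 to 21 calls. The expressed count was 22 to 27 over the thresholds tried. Genes with few reads, such as Asz1 and Spo11, are limited by depth.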
